A study of Zea mays with 4 samples.

Results

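Expression of 7 maize genes, 5 listed as enzymes of chlorophyll synthesis and 2 as GLK transcription factors, was compared between high and low nitrogen supply. They were taken by name from a list of 8, as the locus of highest mean FPKM where a name had several, out of 43110 distinct loci in the table. The eighth name, GRMZM2G323732, listed as the H subunit of magnesium chelatase, matched no row and was not analysed. All plants were of the inbred line B73, the maize reference line, and were raised in hydroculture. RNA came from mature tissue of a leaf described as expanding, and the study names the sixth leaf for its expression results. It also gives the harvest as the time when the sixth leaf had fully expanded, so the leaf stage is unclear. In high nitrogen the solution held 4 mM nitrate throughout. In low nitrogen the plants started in the same solution and were transferred to 0.04 mM nitrate once the third leaf had expanded, with calcium chloride replacing the missing calcium. RNA-Seq gave 2 libraries per treatment, 4 in all, called replicate 1 and 2 of each treatment. How many plants or pots each library holds was not given in the sources used here, so the p-values measure the spread between these libraries.

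Chlorophyll is built in the plastid from glutamate. Glutamyl-tRNA reductase acts at an early step common to all tetrapyrroles, and magnesium chelatase sends protoporphyrin into the chlorophyll branch. Protochlorophyllide reductase carries out the step that needs light in flowering plants. GLK proteins are nuclear transcription factors that act on chlorophyll synthesis and antenna genes in Arabidopsis. In the maize leaf Golden2 is known for its part in bundle sheath chloroplasts, and GLK1 is expressed mainly in mesophyll cells.

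Values are FPKM as deposited, fragment numbers scaled by transcript length and by library size, so levels of different genes can be set side by side. The FPKM of all loci summed to between 1764398 and 1798408 in high nitrogen and between 1043303 and 1141129 in low nitrogen, while the median FPKM of loci with at least 1 FPKM everywhere lay between 11.5 and 11.9 in each library. The number of fragments in each library is unknown. The commonest ratios among loci of very low FPKM, where single fragments set the value, put the depth of the other 3 libraries at 1.14 to 1.74 times that of high nitrogen replicate 1, with both low nitrogen libraries the deeper ones. The tests covered the 22889 loci that reached 1 FPKM in 2 or more libraries, and all 7 genes were among them. The test was limma's on log2(FPKM + 1). Calling a locus required a p under 0.05 after Benjamini-Hochberg adjustment over all these loci and a log2 fold change beyond 1 in either direction.

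All 7 genes were lower under low nitrogen than under high nitrogen, and the highest low nitrogen value of each gene was below its lowest high nitrogen value, although 6 were lower once libraries were scaled to equal FPKM sums. This order was found in 27.2% of all tested loci and the opposite order in 26.6%, and 51.0% of the loci had a negative log2 fold change. Over the 7 genes the median log2 fold change was -1.30, while over all tested loci it was -0.01. By limma, 0 of the 7 passed, against 0.537% of all tested loci in either direction and 0.489% with a lower level. At an unadjusted p under 0.05, 6 of the 7 were lower and 0 higher, against 10.8% and 9.29% of all tested loci. That count of 6 was 1 under equal FPKM sums, where 3.34% of all tested loci were lower at this p and 37.3% higher. It was 2 under quantile normalization, where 9.06% of all tested loci were lower and 9.94% higher. The median log2 fold change of the 7 genes ran from -1.81 to -0.98 with 1 library left out. In leaf RNA, fewer cells of a type and less RNA per cell cannot be told apart.

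**Figure D1:**
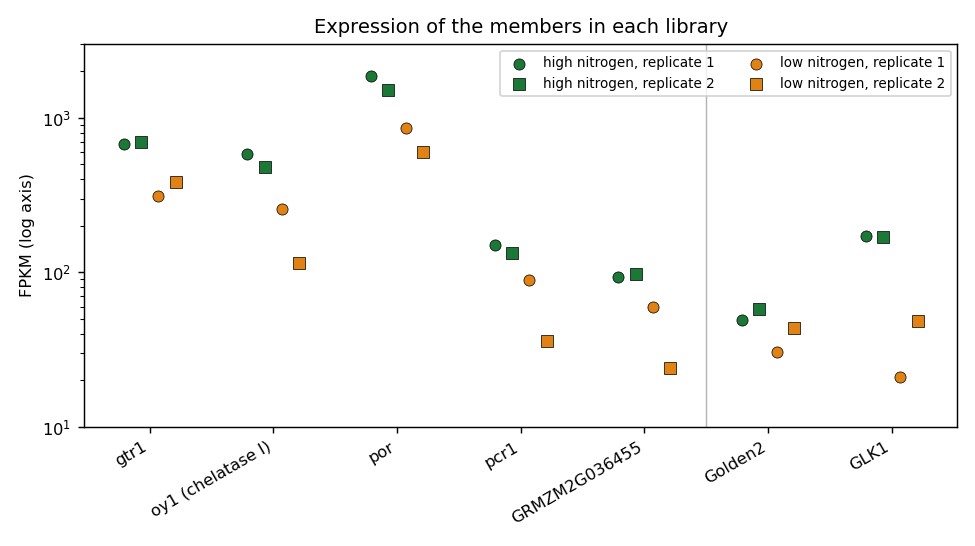
FPKM (log axis) of the 5 enzymes (left of the grey line) and 2 GLK genes in each of the 4 libraries, with high nitrogen in green and low nitrogen in orange. In every gene both orange points lie below both green points, and the gap is widest at GLK1, with 169 and 172 FPKM under high nitrogen compared with 20.9 and 48.1 FPKM under low nitrogen.

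The first enzyme of the pathway in this set is GRMZM2G177412, gtr1 in RefSeq, a glutamyl-tRNA reductase on chromosome 10 of B73 RefGen_v3 from 144041132 to 144046169. It had 679.6 and 699.7 FPKM under high nitrogen compared with 314 and 383 FPKM under low nitrogen (689.6 ± 14.3 against 348.2 ± 48.7, SD, n = 2 each). The low nitrogen mean was 50.5% of the high nitrogen mean. The replicates of each treatment were close together relative to the gap between treatments, and the log2 fold change was -0.99 (95% interval -1.63 to -0.35, limma adjusted p = 0.149). Of all tested loci, 8.07% had a lower log2 fold change. The value depended on scaling, with -0.44 under quantile normalization and -0.29 under equal FPKM sums, which moved the median of all tested loci to 0.59.

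Magnesium chelatase inserts magnesium into protoporphyrin. Its I subunit, an ATPase, is encoded by GRMZM2G419806, the oy1 gene (oil yellow1, named for the pale colour of its mutants), on chromosome 10 from 9225307 to 9229786. The gene had 585 and 477 FPKM under high nitrogen compared with 255 and 115 FPKM under low nitrogen (531 ± 76.2 against 185 ± 98.7, SD, n = 2 each). Low nitrogen replicate 2 lay far below replicate 1, though both lay well under the high nitrogen libraries. The log2 fold change was -1.62 (95% interval -2.74 to -0.50, limma adjusted p = 0.161), the lowest of the 5 enzymes. It was -0.91 under equal FPKM sums, -1.05 without low nitrogen replicate 2 and -2.18 without low nitrogen replicate 1.

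Of the 3 genes listed as protochlorophyllide reductases, GRMZM2G073351, por in RefSeq, on chromosome 5 from 24880737 to 24884057, had by far the highest level. It had 1864 and 1519.8 FPKM under high nitrogen compared with 854 and 597 FPKM under low nitrogen (1692 ± 243 against 726 ± 182, SD, n = 2 each). The log2 fold change came to -1.24 (95% interval -2.02 to -0.45, limma adjusted p = 0.147), and to -0.51 under quantile normalization and -0.53 under equal FPKM sums. This gene stood above 99.2% to 99.5% of the tested loci in the 4 libraries.

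GRMZM2G084958, pcr1 in RefSeq, lies on chromosome 2 from 1463875 to 1465462 and had 150.9 and 133 FPKM under high nitrogen compared with 89.2 and 36.0 FPKM under low nitrogen. GRMZM2G036455, which has no name in RefSeq beyond its identifier and stands here as a protochlorophyllide reductase by the list alone, lies on chromosome 1 from 227569042 to 227572130. Its level was 93.3 and 97.1 FPKM under high nitrogen compared with 59.5 and 24.0 FPKM under low nitrogen. In both genes low nitrogen replicate 2 was far below replicate 1, so the size of the difference rests on the replicate chosen. The log2 fold change was -1.30 at pcr1 (95% interval -2.50 to -0.11, limma adjusted p = 0.223) and -1.31 at GRMZM2G036455 (95% interval -2.49 to -0.13, limma adjusted p = 0.218). Under equal FPKM sums these values were -0.60 and -0.61. Without low nitrogen replicate 2 they were -0.66 and -0.67, and without low nitrogen replicate 1 they were -1.94 and -1.95. The 2 profiles over the 4 libraries were the closest of any pair among the 7 genes, at a Euclidean distance of 0.171 on the centred log2 scale. Related genes can share reads, and how the fragments of similar sequences were divided among the 3 loci was not given in the sources used here.

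The 3 reductases together had 2108 and 1749 FPKM under high nitrogen compared with 1003 and 657 FPKM under low nitrogen. Within a library their proportions do not depend on its scaling. The por gene held 88.4% and 86.9% of the sum under high nitrogen, compared with 85.2% and 90.9% under low nitrogen. The shares of pcr1 were 7.16% and 7.58% against 8.89% and 5.48%, and those of GRMZM2G036455 were 4.42% and 5.55% against 5.93% and 3.65%. The treatments overlapped for all 3 shares, and the low nitrogen libraries bracketed the high nitrogen ones (exact permutation test, two-sided, p = 1 for each share, where 2 against 2 cannot go below 0.333). A difference in the makeup of the reductases was thus not detectable with these libraries, although the total was lower.

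**Figure D2:**
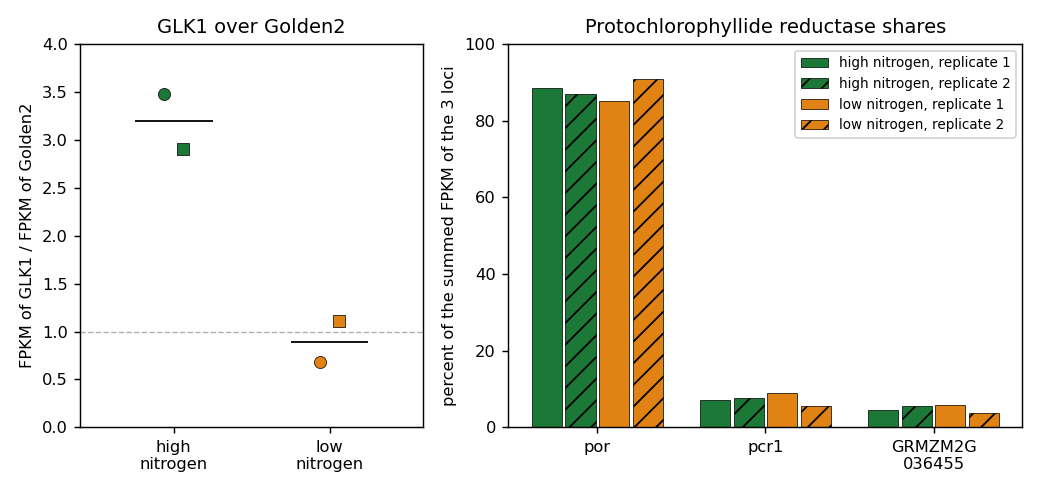
Left, FPKM of GLK1 divided by FPKM of Golden2 in each library (points) with the treatment mean (black line), where the dashed line marks equal levels. Right, percent of the summed FPKM of the 3 protochlorophyllide reductases held by each, one bar per library. The GLK1 to Golden2 ratio was 3.48 and 2.91 under high nitrogen compared with 0.681 and 1.11 under low nitrogen, whereas por held 85.2% to 90.9% of the reductase sum in all 4 libraries.

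The 2 GLK genes differed from each other in the size of the difference. GRMZM2G026833, glk1 in RefSeq, lies on chromosome 9 from 2711604 to 2714038 and had 172 and 169 FPKM under high nitrogen compared with 20.9 and 48.1 FPKM under low nitrogen (171 ± 2.0 against 34.5 ± 19.2, SD, n = 2 each). The low nitrogen mean was 20.2% of the high nitrogen mean. The log2 fold change was -2.39 (95% interval -3.49 to -1.29, limma adjusted p = 0.106), and 1.10% of all tested loci had a lower one. It stayed between -2.97 and -1.81 with each library left out in turn and was -1.70 under equal FPKM sums.

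Golden2, GRMZM2G087804, is listed in RefSeq under the synonym GLK13. Its locus on chromosome 3 from 1464299 to 1477077 shares these bounds with a further locus of the same name, which had at most 0.390 FPKM in any library. Golden2 had 49.5 and 58.2 FPKM under high nitrogen compared with 30.7 and 43.4 FPKM under low nitrogen (53.9 ± 6.18 against 37.0 ± 8.98, SD, n = 2 each). The treatments did not overlap, but the gap between the closest libraries was smaller than the distance between the low nitrogen replicates. The log2 fold change was -0.54 (95% interval -1.24 to 0.15, limma adjusted p = 0.339), the smallest of the 7 genes, and with libraries scaled to equal FPKM sums it was 0.15. That scaling moved the median of all tested loci from -0.01 to 0.59, and relative to this median Golden2 was at -0.44.

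In high nitrogen GLK1 was the higher of the pair, with 3.48 and 2.91 times the FPKM of Golden2, and in low nitrogen the ratio was 0.681 and 1.11. On the log2(FPKM + 1) scale the difference between the genes was 1.65 ± 0.18 under high nitrogen compared with -0.19 ± 0.48 under low nitrogen (SD, n = 2 each). The low minus high nitrogen difference was -1.85, more than the spread within either treatment, and the treatments did not overlap (exact permutation test, two-sided, p = 0.333, the smallest that 2 against 2 allows). Leaving out each library in turn gave -2.18 to -1.51. The plain FPKM ratio does not depend on the scaling of a library.

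Since the 2 regulators are associated with different cell types, their levels stand beside markers of these cells. All 5 mesophyll markers, among them PEPC and PPDK of the C4 cycle, were found. Their summed FPKM was 34707 to 48163 under high nitrogen compared with 13153 to 17513 under low nitrogen. The low nitrogen mean was 22.7% of the high nitrogen mean at PEPC and 21.3% at the carbonic anhydrase GRMZM2G121878. It was 54.4% at PPDK, 60.1% at the carbonic anhydrase GRMZM2G348512 and 44.1% at the NADP-malate dehydrogenase GRMZM2G129513. Of the 4 bundle sheath markers 2 were found, a rubisco small subunit and PEP carboxykinase, with a sum of 10828 to 14494 under high nitrogen compared with 5042 to 6339 under low nitrogen. The rubisco subunit made up most of this sum and did not overlap between treatments (8857 and 11321 FPKM against 4677 and 2387 FPKM), whereas PEP carboxykinase overlapped (1971 and 3173 FPKM against 1663 and 2655 FPKM). NADP-malic enzyme and a further rubisco small subunit of that list had no row under their names. The ratio of the mesophyll to the bundle sheath sum was 4.45 and 2.39 under high nitrogen compared with 2.76 and 2.61 under low nitrogen, so that the treatments overlapped. Of 5 epidermal markers 3 were found (gl1, ocl1 and ocl4), with a sum of 95.5 to 126 FPKM under high nitrogen compared with 165 to 173 FPKM under low nitrogen. The higher sum was that of gl1 (75.1 and 113 FPKM against 150.0 and 164 FPKM), while ocl1 overlapped with a log2 fold change of -0.54 and ocl4 was below 1 FPKM in all 4 libraries. The part of cell type proportions in the GLK values was not tested.

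In high nitrogen the 7 genes kept the same order of levels in both libraries, por, gtr1, oy1, GLK1, pcr1, GRMZM2G036455 and Golden2, and no neighbours in this order overlapped. In low nitrogen the first 3 again came in that order without overlap. The other 4, however, lay between 20.9 and 89.2 FPKM, and their ranges overlapped. GLK1 came after oy1 in high nitrogen and had the lowest value of all 7 genes in low nitrogen replicate 1.

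The low nitrogen replicates also differed from each other, and not in the same direction at all 7 genes. Low nitrogen replicate 2 was below replicate 1 at 4 of the 7 genes, with a log2 difference of -1.14 at oy1, -1.28 at both pcr1 and GRMZM2G036455, and -0.52 at por. It was above replicate 1 at gtr1 by 0.29, at Golden2 by 0.49 and at GLK1 by 1.17. The median of this difference over all tested loci was near 0 (-0.00182), with a median absolute value of 0.34. A larger absolute difference than that of GLK1 was found in 7.20% of tested loci, and a larger one than that of pcr1 in 5.62%. For por, Golden2 and gtr1 these shares were 32.9%, 35.3% and 56.7%, so their differences were of a common size. Thus the library with the lower reductases was the one with more GLK1 of the 2, and each low nitrogen mean of these genes covers a wide spread.

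Other genes of the pathway were taken from the tetrapyrrole classes of the study's MapMan annotation and from RefSeq symbols of pathway genes. The MapMan list holds genes that the study called differentially expressed with edgeR on these libraries, so that their direction is not independent evidence. Of 14 such names 12 could be tested, 6 of them from MapMan. The limma test on FPKM called none of the 12, against 0.537% of all tested loci. At an unadjusted p under 0.05, 5 were lower and 3 higher, against 10.8% and 9.29% of all tested loci. Under equal FPKM sums these counts were 2 and 5, against 3.34% and 37.3% of all tested loci. Under quantile normalization they were 3 and 3, against 9.06% and 9.94%. The median log2 fold change of the 12 was 0.16, with values from -2.67 to 1.88, and it was -0.06 without GRMZM2G093900, whose place in the pathway is doubtful (described with the other branches).

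Among the 6 genes of synthesis 5 were lower, against 51.0% of all tested loci, and the median over the 6 was a log2 fold change of -1.23. GRMZM2G323024, GRMZM2G464328 and GRMZM2G043109 come from the MapMan list, so this count and this median were partly fixed by the choice. Those taken by symbol, les22, prpo1 and prpo2, had log2 fold changes of -1.17, -0.06 and 0.39. GRMZM2G323024, annotated by MapMan as the H subunit of magnesium chelatase, the partner of oy1, had 2361 and 1999 FPKM under high nitrogen compared with 989 and 792 FPKM under low nitrogen (log2 fold change -1.29, limma adjusted p = 0.129, and -0.54 under quantile normalization and -0.59 under equal FPKM sums). GRMZM2G464328, similar to Arabidopsis GUN4, which binds porphyrins and stimulates magnesium chelatase, had 836 and 1001 FPKM against 218 and 173 FPKM (log2 fold change -2.23, limma adjusted p = 0.0597). It overlaps a further locus of at most 3.37 FPKM. The lowest log2 fold change of the list was -2.67, at GRMZM2G043109, similar to the Arabidopsis cyclase CRD1, which forms the fifth ring of the chlorophyll precursor. It had 287 and 269 FPKM under high nitrogen compared with 64.5 and 28.5 FPKM under low nitrogen (limma adjusted p = 0.0911). In 4 of the 6 genes of synthesis, these 3 from the MapMan list and les22, no low nitrogen library reached the high nitrogen levels. Of all tested loci, 27.2% had this order.

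The remaining 3 genes of synthesis act before the branch to chlorophyll. The les22 gene, GRMZM2G044074, which encodes uroporphyrinogen decarboxylase, had 123 and 133 FPKM under high nitrogen compared with 86.4 and 36.5 FPKM under low nitrogen (log2 fold change -1.17, limma adjusted p = 0.241, and -1.78 to -0.56 with each library left out). The genes prpo1 and prpo2, for protoporphyrinogen oxidase, had log2 fold changes of -0.06 (95% interval -0.83 to 0.71) and 0.39 (95% interval -0.19 to 0.97). The sign at prpo1 changed under equal FPKM sums and under quantile normalization, and prpo2 was at 1.06 under equal FPKM sums.

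**Figure D3:**
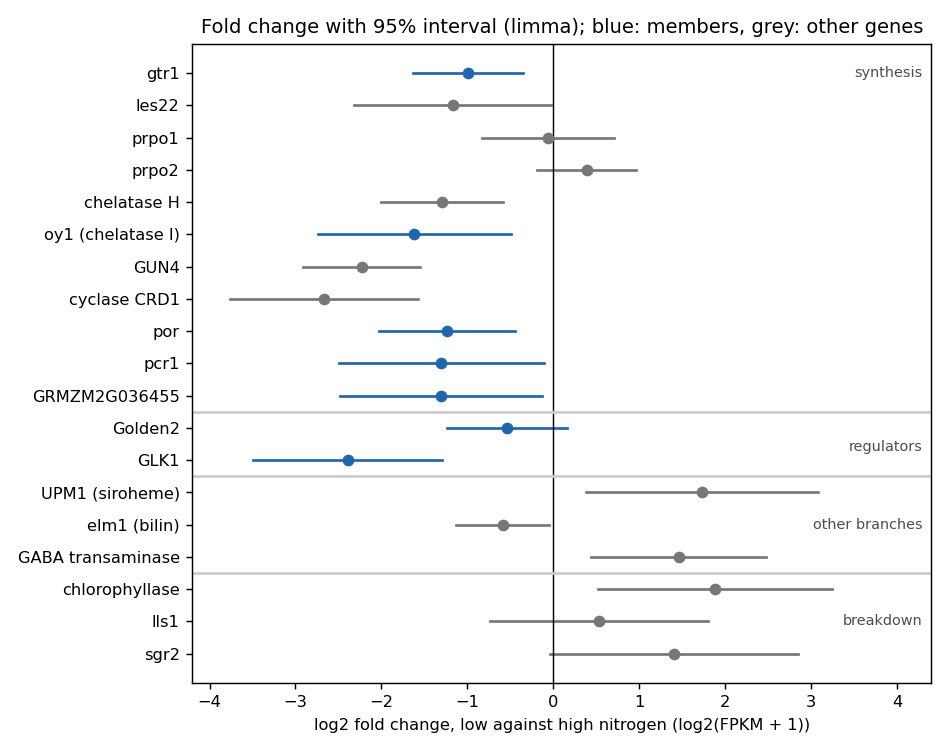
Log2 fold change of low against high nitrogen on the log2(FPKM + 1) scale (point) with its 95% interval from limma (line), for the 7 genes (blue) and 12 other genes of the tetrapyrrole list (grey), in pathway order from top to bottom and split by role. The values run from -2.67 at the cyclase to 1.88 at the chlorophyllase, and none of the genes passed the adjusted threshold.

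Of 5 names of breakdown genes 3 could be tested, and limma called 0 of them, against 0.537% of all tested loci. All 3 had a positive log2 fold change, while 51.0% of all tested loci had a negative one. Of the 3, 1 had an unadjusted p under 0.05, GRMZM2G103197 from the MapMan list, against 9.29% of all tested loci with a higher level. The treatments overlapped at 1, and both low nitrogen libraries lay above both high nitrogen libraries in 26.6% of all tested loci. The largest value of the list was 1.88, at GRMZM2G103197, similar to an Arabidopsis chlorophyllase, an enzyme that removes the phytol tail of chlorophyll in vitro. It had 116 and 283 FPKM under high nitrogen compared with 881 and 511 FPKM under low nitrogen (limma adjusted p = 0.169), and leaving out each library gave 1.24 to 2.52. The stay-green gene sgr2, GRMZM2G091837, had 2.71 and 7.10 FPKM against 8.59 and 20.8 FPKM (log2 fold change 1.40, 95% interval -0.04 to 2.84, limma adjusted p = 0.257), with 0.81 to 1.99 when each library was left out. The lls1 gene, GRMZM2G339563, which encodes pheophorbide a oxygenase, had overlapping values, with 23.9 and 42.8 FPKM under high nitrogen compared with 31.1 and 70.2 FPKM under low nitrogen (log2 fold change 0.53, and -0.044 without low nitrogen replicate 2). Both names of sgr1 were under 0.05 FPKM in every library and were not tested.

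In the branches that leave the pathway, GRMZM2G000739, similar to the Arabidopsis methyltransferase UPM1 of siroheme synthesis, had 1.49 and 5.78 FPKM under high nitrogen compared with 14.8 and 10.8 FPKM under low nitrogen. Siroheme is the cofactor of nitrite and sulfite reductases. Its log2 fold change was 1.73 (limma adjusted p = 0.184), and with values this low it was 2.06 with a pseudocount of 0.1, 1.01 without high nitrogen replicate 1 and 2.45 without high nitrogen replicate 2. At elm1, GRMZM5G861678, which makes the chromophore of phytochrome, the log2 fold change was -0.59 (limma adjusted p = 0.224), and it was near 0 under equal FPKM sums. GRMZM2G093900 stands in the MapMan class of glutamate-1-semialdehyde aminotransferase, but its annotation is closest to an Arabidopsis GABA transaminase, which is no enzyme of this pathway. It had 9.65 and 19.9 FPKM against 34.6 and 46.4 FPKM (log2 fold change 1.46, limma adjusted p = 0.162).

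Most chlorophyll of the leaf is bound by the light harvesting antenna, so the summed FPKM of the 5 enzymes was set against that of 13 antenna loci. Their list holds genes that the study called lower in low nitrogen on these same libraries. A lower antenna sum, and with it a higher ratio to the antenna, was thus partly fixed by the choice. The enzymes summed to 3373 and 2927 FPKM under high nitrogen compared with 1572 and 1155 FPKM under low nitrogen. The antenna summed to 124074 and 114513 FPKM under high nitrogen compared with 34933 and 34532 FPKM under low nitrogen. The antenna thus stood at 36.8 and 39.1 times the enzymes in high nitrogen and at 22.2 and 29.9 times in low nitrogen. The log2 ratio of enzymes to antenna was 0.56 higher in low nitrogen, with no overlap of the treatments (exact permutation test, two-sided, p = 0.333, the smallest possible), and it stayed between 0.34 and 0.77 with each library left out. The log2 ratio of Golden2 to the antenna was likewise 1.22 higher in low nitrogen without overlap, whereas that of GLK1 was -9.49 and -9.40 under high nitrogen compared with -10.71 and -9.49 under low nitrogen, so that low nitrogen replicate 2 lay within the range of the high nitrogen libraries. The antenna loci had a median log2 fold change of -1.53, and the enzymes had one of -1.30. The loci of AC208915.3_FG010 and GRMZM2G429955 share the same bounds on chromosome 3 and had the lowest values, -3.18 and -3.59. The other antenna loci had -1.88 to -1.27. AC208915.3_FG010 had 21789 and 17072 FPKM under high nitrogen compared with 2641 and 1702 FPKM under low nitrogen. The ratios to the antenna thus depend in part on these loci, and they were not computed without them.

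Among the 5378 other tested loci with a symbol or a RefSeq name, those closest to Golden2 in their centred log2 profile over the 4 libraries were GRMZM2G050705, GRMZM2G079746 and GRMZM2G060669, at Euclidean distances of 0.0481, 0.0634 and 0.0722. The closest to GLK1 were GRMZM2G015908, GRMZM2G084859 (PSK3) and GRMZM2G066636, at 0.290, 0.341 and 0.382. Of these, GRMZM2G084859 had 56.6 and 71.1 FPKM under high nitrogen compared with 9.03 and 18.9 FPKM under low nitrogen. All loci closest to GLK1 shared its order of libraries within low nitrogen, which the choice by profile favours.

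**Figure D4:**
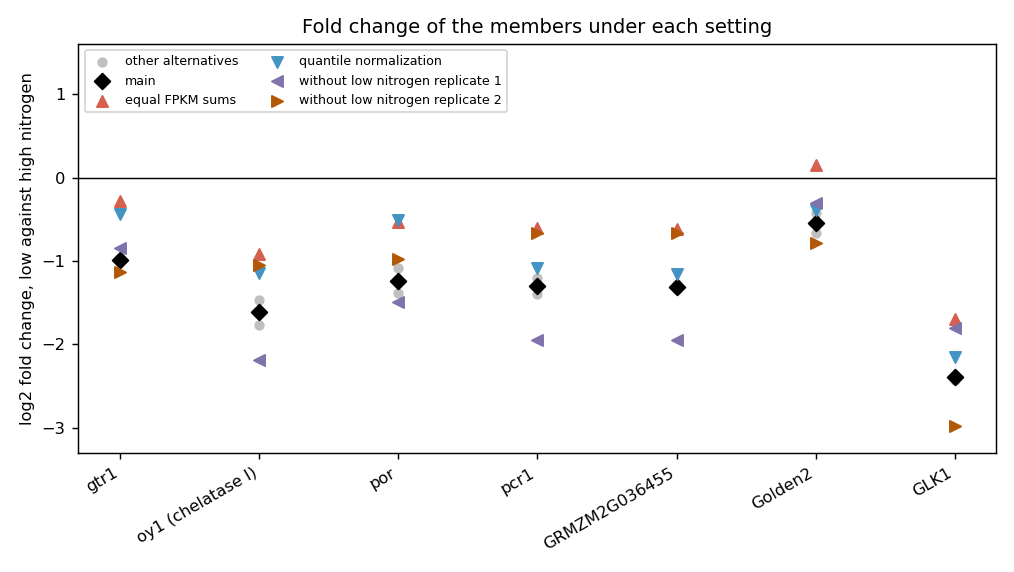
Log2 fold change of each of the 7 genes (low against high nitrogen) as reported (black diamonds) and under 12 other settings. The point above 0 is Golden2 under equal FPKM sums (0.15), and GLK1 lies between -2.97 and -1.70 throughout.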

How the data were processed

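RNA from the sixth leaf of B73 was sequenced in 2 libraries per treatment. The authors removed adapters and poor bases, used TopHat2 for alignment to B73 RefGen_v3 and StringTie for assembly, and deposited one FPKM value per locus and library. The versions and the strand setting were not given in the sources used here. The authors tested with edgeR, which needs counts. The deposited table repeats loci under several names, and each of the 43110 loci was used once.

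Here limma 3.58.1 in R 4.3.3 (lmFit, eBayes with a trend) was run on log2(FPKM + 1) over the 22889 loci reaching 1 FPKM in 2 or more libraries, with Benjamini-Hochberg adjustment, and the script was tested on simulated data. Sums, ratios and exact permutation tests were computed in Python 3.11.15 (pandas 2.3.3, numpy 2.4.6), and figures were drawn with matplotlib 3.10.9. Total counts are unknown, so no counting intervals are given, and 95% intervals are those of limma.

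The genes and lists were chosen with earlier results of these data known. By rule the text names the 7 genes, the pathway genes of highest and lowest log2 fold change, and the 3 loci nearest to each GLK gene. The other pathway genes were named after their values were seen. Positions are as deposited, with starts counted from 1. The RefSeq table (assembly Zm-B73-REFERENCE-NAM-5.0), used for names alone, matched 7 of the 8 listed names and 13 of 14 pathway names. The symbols por1, por2 and pao1 were left out because RefSeq gives them to a porin, an aquaporin and a polyamine oxidase. The table has no descriptions, so the planned match by description was not made, and neither sequences nor promoter motifs were analysed here. Of 14 marker names 10 were found.

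Each choice was varied singly: the pseudocount, the filter, the scaling of libraries (equal sums, equal medians, quantiles), the variance trend, the fold change threshold, a replicate block and the omission of each library.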

Additional observations from a re-analysis of the deposited data

How the results depend on the processing

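As reported, limma called 123 of all tested loci, none of the 7 genes and none of the 12 other tetrapyrrole loci. All loci called were 60 under equal FPKM sums, 23 with every locus above 0 in at least 1 library tested, and 0 to 16 with 1 library left out, when the lone library of a treatment is assumed to vary like the other pair. Leaving out a library called none of the 7 genes and none of the 12. The labels give both treatments replicates 1 and 2 but do not say that a number marks a pair, and deviations of same-numbered libraries had a correlation of 0.203 across loci. Blocking on replicate number (the replicate block) raised the calls to 617, and to 1 of the 7 genes, GLK1 (limma adjusted p = 0.0400, with 0.0400 to 0.523 over its alternatives), and 2 of the 12, the cyclase and GUN4 genes.

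All 7 genes were lower under every alternative except equal FPKM sums, which left 6 lower, with Golden2 at 0.15. The median log2 fold change of the 7 was -0.60 under equal FPKM sums and ran from -1.81 to -0.98 with 1 library left out. Among the others, prpo1 turned to 0.63 under equal FPKM sums, 0.088 under quantile normalization, and -0.39 to 0.27 with 1 library left out, elm1 to 0.047 under equal FPKM sums, and lls1 ran from -0.044 to 1.11 with 1 library left out. With 1 library left out, the low minus high difference in reductase share ran from -1.89 to 1.52 percentage points for pcr1, from -1.34 to 0.95 for GRMZM2G036455 and from -2.47 to 3.23 for por. The promoter alternative was not run. Depth in fragments is unknown, which limits genes of few FPKM most.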
